A study of Mus musculus with 16 samples.

Results

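The genes described here are those of the cytosolic ribosomal proteins in cortical bone and tibialis anterior (TA) muscle of aged mice. Members were chosen by name and annotation alone: protein coding rows whose gene name starts with Rpl or Rps followed by a digit, without the Rps6k kinases. The rule took 86 of 21011 genes in the muscle table and 88 of 38933 genes in the bone table, and Rpl10l and Rpl39l were the 2 genes found only in bone. Of the 88 names, 52 start with Rpl, for the large subunit, and 36 with Rps, for the small subunit. The rule also took 5 copies with a name ending in -ps and a number, the retrogene copies Rps23rg1 and Rps27rt, and Rps19bp1, which encodes a protein that binds Rps19, is no part of the ribosome and is counted here under its Rps name.

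Female C57BL/6 mice, 18 months old when dosing started, were gavaged with BAY2416964 (BAY), an orally active antagonist of the aryl hydrocarbon receptor, or with vehicle (VEH). Dosing lasted 8 weeks with 5 doses a week, each of 30 mg/kg BAY. RNA was sequenced in bulk from shafts of cortical bone, after marrow stromal cells had been collected and the shafts had been digested with collagenase, and from TA muscle, with 4 mice per treatment in each tissue and 16 libraries in all. The labels number the mice 1 to 4 in each group and do not say that a number marks the same mouse in both tissues. Values are CPM, read counts scaled to a common library total, and each tissue was normalized in its own table, so levels in muscle and bone stand side by side here without a test between them. In such bulk samples, fewer cells of a type and less RNA per cell cannot be told apart.

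Cytosolic ribosomes join a large and a small subunit, each made of ribosomal RNA and a set of proteins that are needed in nearly equal amounts. Most ribosomal protein mRNAs start with a run of pyrimidines, through which mTORC1 and the RNA binding protein LARP1 set how strongly they are translated. A few proteins have paralogues with a restricted pattern, of which Rpl3l, a form of the large subunit protein Rpl3 found in skeletal muscle and heart, is the best known in muscle.

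The starts of the genes are shown first for Rpl3l and for the members that came out lower in BAY-treated muscle and have an entry among the RefSeq promoters of build GRCm38.p6, which was 5 of the 10. Each window holds 30 bases, 15 on either side of the annotated start, and capitals mark a run of at least 6 pyrimidines that begins with C on the strand of the gene.
Rpl15, chr14:18270972-18271001, minus strand: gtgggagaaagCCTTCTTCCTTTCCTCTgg
Rps21, chr2:180257364-180257393, plus strand: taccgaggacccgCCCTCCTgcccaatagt
Rps27l, chr9:66946071-66946100, plus strand: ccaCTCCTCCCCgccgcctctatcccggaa
Rps25, chr9:44407699-44407728, plus strand: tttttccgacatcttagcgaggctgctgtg
Rps3a1, chr3:86142654-86142683, minus strand: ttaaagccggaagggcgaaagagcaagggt
Rpl3l, chr17:24727811-24727840, plus strand: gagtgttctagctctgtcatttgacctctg
The run was 17 bases long at Rpl15, and no such run lay in the windows of Rps25, Rps3a1 or Rpl3l. RefSeq lists a further start for Rps21, Rps27l and Rpl3l, and none of those 3 windows held a run. Of the 88 members, 64 had an entry, and 37 of these (57.8%) had the run in at least 1 of their windows, against 25.5% of the 27025 genes of the table. On the opposite strand of the same windows the shares were 10.9% and 28.6%. Annotated starts can lie a few bases from the used ones, so an absent run says only that these letters are not in this window.

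Ribosomal protein genes have many processed copies in the mouse genome, and this bears on every level below. Over the 86 members with an annotated coding sequence, a median of 95.0% of the 31-letter words of that sequence also occurred in an annotated transcript of another gene, and 54 members had over 90% of their words elsewhere. The exceptions include Rpl3l and Rps19bp1, with no shared word, Rpl8 with 11.0% and Rps3 with 18.9%. The authors divided reads that fit several genes among them, and 73 of the 86 members in muscle and 57 of the 88 in bone carried fractions of reads in at least 6 of the 8 libraries. Levels and changes of single members with many shared words are therefore uncertain. In muscle, the 54 members with over 90% of their words elsewhere had a median level of 13.5 CPM per kb of coding sequence, and the other 30 members with a known length had 41.0.

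The members together took a small share of all reads, from 0.170% to 0.243% of CPM in muscle and from 0.133% to 0.406% in bone. Pseudogene rows with Rpl or Rps names took a further 0.0775% to 0.112% in muscle and 0.108% to 0.235% in bone. In muscle their mean levels ran from 0.149 CPM for Rps23rg1 to 170 CPM for Rpl3l, with Rpl4 next at 167 CPM and a median of 11.5. Per kb of coding sequence, the members with the highest levels in muscle were Rpl29 at 193 CPM, Rpl41 at 188 and Rpl26 at 154. The library values of neighbours in this order overlapped, and BAY 4 was above the other BAY libraries in each. Rpl41 lay at 21.7, 26.2, 36.7 and 21.1 CPM in the VEH libraries and at 24.3, 17.5, 23.5 and 37.0 CPM in the BAY libraries. The 5 lowest per kb in muscle were Rps23rg1 at 0.352, Rps27 at 1.21, Rps7 at 2.31, Rpl10 at 2.66 and Rps13 at 3.49, and the last 4 share at least 98.6% of their words with other genes. In bone the order per kb was led by Rpl41 at 288, Rps24 at 206, Rps3 at 205, Rpl13a at 187 and Rpl26 at 168, and closed by Rps19bp1 at 8.46, Rps27l at 5.77, Rpl39l at 4.99, Rps7 at 4.41 and Rpl24 at 1.24.

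The question put to each tissue was whether BAY moved these genes against VEH. In muscle, 67 of the 86 members had a lower mean log2 value in BAY and 19 a higher one. The median log2 fold change (BAY minus VEH) was −0.16 over the members and 0.06 over all 21011 genes. With limma over all genes, 10 members (11.6%) were lower at an unadjusted P under 0.05, against 3.07% of all genes, and 0 members were higher, against 6.71% of all genes. At the study's own call of P under 0.05 and a change of at least 2-fold, 1 member was lower (Rpl23a) against 1.09% of genes and 0 were higher against 1.33%. No member and no gene of the table passed after Benjamini-Hochberg adjustment, and the smallest adjusted P of a member was 0.312, for Rps21. The 4 VEH libraries lay above the 4 BAY libraries without overlap for 8 members, against 1.53% of all genes, and the reverse held for 0 members, against 4.2%. Of the 10 lower members, 8 were among the 54 with over 90% of their words elsewhere and 2 among the other 30, where the median log2 changes were −0.16 in both. None of the 8 members with under 50% of their words elsewhere passed, with a median of −0.09 and 6 of the 8 lower in BAY.

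**Figure D1:**
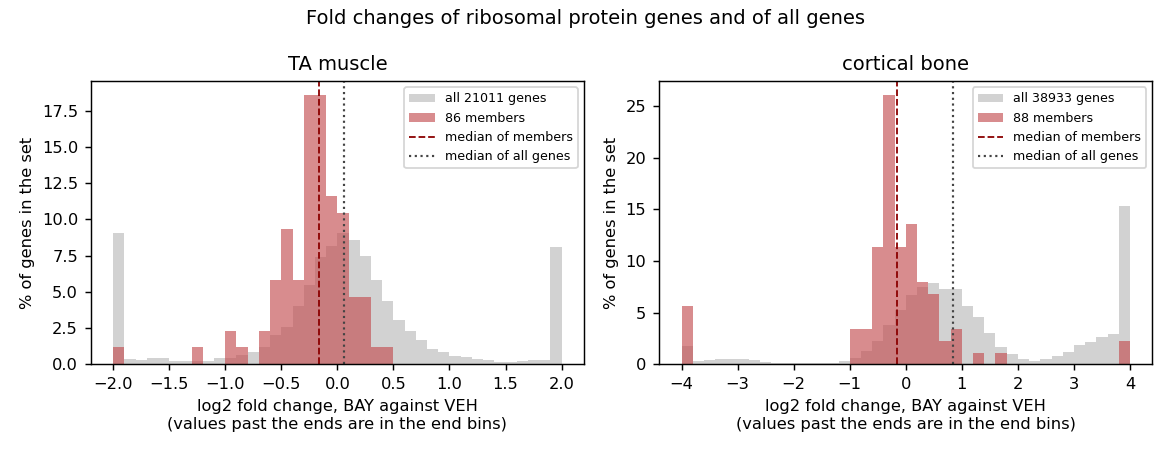
Distribution of log2 fold changes (BAY against VEH, horizontal axis) for the members (red) and all genes (grey), as a percentage of each set (vertical axis), in TA muscle and cortical bone. In muscle the members centre at −0.16 and all genes at 0.06, and in bone they centre at −0.16 and 0.84. With VEH 1 left out, the median over all genes in bone was −0.09.

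Among the genes with Rps names, 30 of 36 had a lower mean in BAY-treated muscle and the median log2 change was −0.22, and 6 passed. Rps21, a protein of the small subunit, was at 3.38, 4.74, 4.53 and 3.22 CPM in the VEH libraries and at 2.34, 2.28, 1.68 and 1.68 CPM in the BAY libraries. Every VEH library was above every BAY library, and the log2 fold change was −0.99 ± 0.28 (SE, limma P = 0.00389, exact permutation P = 0.0286). Its values rest on few reads, 27 to 42 per VEH library and 12 to 17 per BAY library. With 4 libraries against 4, 0.0286 is the smallest P that exact permutation can give.

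Rps27a, which is made as a fusion of ubiquitin with a small subunit protein, was at 5.20, 3.67, 4.14 and 2.95 CPM in VEH and 1.99, 1.87, 2.07 and 2.25 CPM in BAY. The groups did not overlap, with a log2 fold change of −0.94 ± 0.28 (limma P = 0.00467, exact permutation P = 0.0286). Rps25, a small subunit protein known for its part in internal initiation, gave 20.5, 22.5, 25.9 and 17.6 CPM in VEH against 15.3, 15.6, 16.5 and 10.6 CPM in BAY. These groups did not overlap either, and the log2 fold change was −0.58 ± 0.17 (limma P = 0.00489, exact permutation P = 0.0286). Rps3a1, which lies near the mRNA exit of the small subunit, was the most abundant of the 10, at 48.2, 48.8, 56.2 and 41.9 CPM in VEH and 36.8, 42.1, 35.0 and 38.03 CPM in BAY. Its groups overlapped in 1 library, BAY 2 at 42.1 CPM, and the log2 change was −0.36 ± 0.12 (limma P = 0.0127, exact permutation P = 0.0571).

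Among the genes with Rpl names, 37 of 50 had a lower mean in BAY-treated muscle, with a median of −0.16, and 4 passed. Rpl21 was at 27.0, 23.1, 33.8 and 25.2 CPM in VEH and 19.0, 20.7, 22.8 and 19.1 CPM in BAY, without overlap, a log2 change of −0.41 ± 0.14 (limma P = 0.0130, exact permutation P = 0.0286). Rpl15 was at 21.1, 21.8, 37.7 and 22.9 CPM in VEH and 20.7, 18.5, 19.9 and 15.1 CPM in BAY, so that VEH 3 stood well above the rest, and the change was −0.45 ± 0.19 (limma P = 0.0315, exact permutation P = 0.0286). Rpl23a, which sits at the exit of the peptide tunnel, was at 6.60, 3.75, 6.66 and 3.77 CPM in VEH and 1.86, 4.91, 2.14 and 0.976 CPM in BAY. Its groups overlapped, with BAY 2 above 2 of the VEH libraries, and its change of −1.26 ± 0.43 (limma P = 0.0108, exact permutation P = 0.0857) was the largest of the 10. Rpl9-ps6, a protein coding copy of Rpl9, was at 20.9 ± 4.80 CPM in VEH and 14.7 ± 2.40 CPM in BAY, a change of −0.50 ± 0.18 (limma P = 0.0158, exact permutation P = 0.0571). The groups also did not overlap for Rpl32 and Rps23, whose limma P values were 0.0642 and 0.0681.

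**Figure D2:**
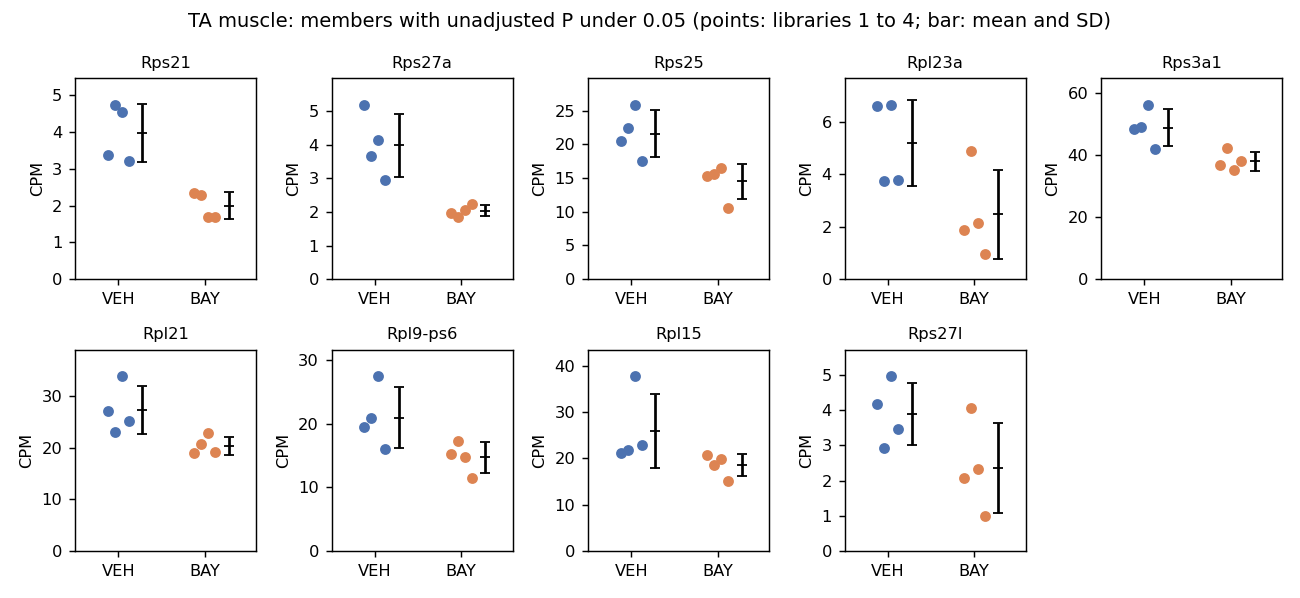
CPM (vertical axes, from 0) of 9 of the 10 members with unadjusted P under 0.05 in TA muscle, with 1 point per library and the mean with SD beside each group. Rps21, Rps27a and Rps25 show no overlap of VEH and BAY, whereas BAY 2 lies within the VEH points for Rpl23a and Rps27l.

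Because reads can pass between a gene and its copies, the fit was repeated after adding the CPM of 116 rows named as copies (-ps and a number) to their 45 parent genes. Of the 81 members left, 12 were then lower (3.07% of all genes) and 1 was higher (6.75% of all genes) at an unadjusted P under 0.05, and 8 of the original 10 were among them. Rps27a, which alone held 13.2% of the sum, was at 27.4, 22.9, 30.9 and 24.1 CPM in VEH and 21.8, 22.8, 17.2 and 16.1 CPM in BAY with its copies, still without overlap, and the log2 change was −0.44 ± 0.15 (limma P = 0.0136, exact permutation P = 0.0286). Rpl15 with its copies changed by −0.53 ± 0.17 (limma P = 0.00697, exact permutation P = 0.0286) and Rps25 by −0.59 ± 0.19 (limma P = 0.00779, exact permutation P = 0.0571). Rpl23a held only 5.27% of the sum with its copies, and the sum changed by −0.15 ± 0.16 (limma P = 0.358, exact permutation P = 0.457). The member called at 2-fold therefore did not keep that call. Rpl17, a large subunit protein that took 13.0% of its sum, was at 52.3, 42.1, 64.3 and 43.2 CPM in VEH and 29.0, 36.9, 33.3 and 36.5 CPM in BAY with its copies, a change of −0.56 ± 0.15 (limma P = 0.00241, exact permutation P = 0.0286). It was named after its values were seen, as was Rpl27, the 1 sum that was higher in BAY: 6.27, 3.03, 6.92 and 6.00 CPM in VEH and 10.5, 14.2, 10.2 and 15.9 CPM in BAY, a log2 change of 1.24 ± 0.26 (limma P = 0.000331, adjusted P = 0.199, exact permutation P = 0.0286). As the reads were divided, the difference lay in the row of the processed pseudogene Rpl27-ps3, at 3.92 ± 1.85 CPM in VEH and 10.7 ± 2.17 CPM in BAY. The parent gene differed by 0.22 ± 0.38 (limma P = 0.569, exact permutation P = 0.429). All words of the Rpl27 coding sequence occur in Rpl27-ps3, so the division of reads between them is uncertain.

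One VEH library of muscle stood apart. Over the 48 members whose mean reached 10 CPM, the median deviation from their own means, in log2 units, was 0.34 in VEH 3, where 46 of 48 were above their mean, and over the 5281 protein coding genes of that level it was 0.18. In the other VEH libraries it was 0.03, 0.01 and −0.07, and in the BAY libraries −0.18, −0.00, −0.21 and 0.08. VEH 3, whose column name marks it as a replacement library, also carried more RNA of other cell types: the 6 adipocyte markers summed to 199 CPM there and to between 2.2 and 9.7 CPM in the other 7 libraries, and the 3 fibroblast markers to 180 CPM against 47.8 to 72.6. Markers of muscle fibres (9 genes) summed to between 113181 and 142471 CPM in VEH and between 122978 and 189946 CPM in BAY. The part of these cells in the members' levels was not tested. Without VEH 3, 8 members were lower (1.65% of all genes in that fit) and 0 higher (8.15% of all genes) at an unadjusted P under 0.05. Of these 8, 7 were among the original 10, and Rpl15 and Rps27l were among those that no longer passed. VEH 3 stood apart for Rpl15 (37.7 CPM, the other VEH libraries 21.1 to 22.9) and less so for Rps27l (4.97 CPM, the others 2.93 to 4.19). A lower mean was found for 56 of 86 members, and the members' median was −0.08, against −0.16 with VEH 3. Over all genes the median was 0.12 without VEH 3 and 0.06 with it.

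The members moved together across the muscle libraries more than genes of that abundance in general. Over the 8 libraries, the mean pairwise Pearson correlation among the 48 members with at least 10 CPM was 0.38, and among all 5281 protein coding genes of that level it was 0.22. After the group means were removed the values were 0.36 and 0.26, so taking out the group means changed the value of the members little. The first principal component held 43.8% of the variance of these members and 39.7% of that of the 5281 genes. These are descriptions of 8 libraries that share depth and composition. The genes that are no member and followed the members' median most closely over the 8 libraries, among 5511 with at least 10 CPM, were the pseudogenes Gm15500 (r = 0.99) and Gm15459 (r = 0.96), and Itm2b, Metap1 and Eif3h (r = 0.97 each). Metap1 encodes a methionine aminopeptidase that acts on new proteins, and Eif3h a subunit of the initiation factor eIF3.

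**Figure D3:**
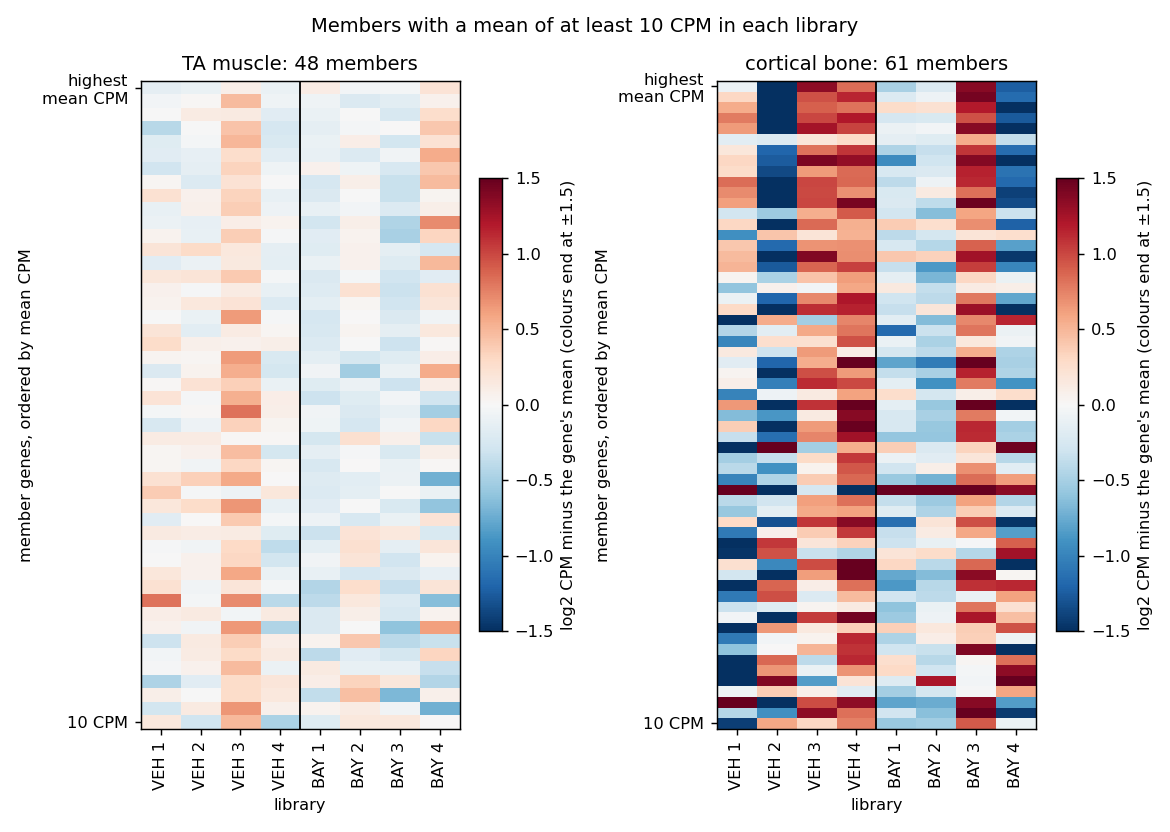
Heat map of members whose mean reached 10 CPM (from top to bottom by falling mean CPM) across the 8 libraries of each tissue, coloured by log2 CPM minus the gene's mean. In muscle the column of VEH 3 is red for 46 of 48 members, and in bone 52, 58 and 55 of 61 members are above their mean in VEH 3, VEH 4 and BAY 3 against 25, 17, 12, 13 and 19 in VEH 1, VEH 2, BAY 1, BAY 2 and BAY 4.

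In muscle, Rpl3l and Rpl4 had the highest CPM of the members. Rpl4 was above Rpl3l in all 4 VEH libraries (means of 178 and 162 CPM) and below it in all 4 BAY libraries (155 and 177 CPM), and per kb of coding sequence Rpl3l ranked 6 among the members. This order was seen in the values and was not tested. In VEH 4 the 2 genes were close, at 158.3 and 157.5 CPM. Rpl4 alone changed by −0.19 ± 0.14 (limma P = 0.202, exact permutation P = 0.229). Rpl3l lies on chromosome 17 from 24946794 to 24955117 in mm39, and its parent paralogue Rpl3 on chromosome 15 from 79961992 to 79976069. Rpl3l was at 154, 159, 180 and 157 CPM in VEH and 183, 164, 166 and 196 CPM in BAY. The groups overlapped, with a log2 change of 0.12 ± 0.12 (limma P = 0.308, exact permutation P = 0.171). Rpl3 was at 4.10, 4.87, 6.71 and 5.63 CPM in VEH and 7.98, 5.45, 4.59 and 3.94 CPM in BAY, a change of 0.02 ± 0.25 (limma P = 0.953, exact permutation P = 1). Per kb of coding sequence, the Rpl3l level was between 22.7 and 49.2 times that of Rpl3 in the 8 libraries. Rpl3 shares 97.4% of its words with other genes, and when the reads of its copy were added, Rpl3l CPM was between 7.44 and 10.7 times the sum.

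The question whether BAY shifted the balance of this pair was tested within each library. The log2 difference Rpl3l minus Rpl3 was 4.95 ± 0.22 in VEH and 5.06 ± 0.47 in BAY (SD, n = 4), a shift of 0.11, within the SD of either group (exact permutation P = 0.686). No shift of the balance was detectable with 4 mice per group.

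In bone, Rpl3l was at 27.0, 0, 0.354 and 0 CPM in VEH and 60.8, 77.3, 2.04 and 1.07 CPM in BAY. Its log2 change of 9.16 ± 4.30 depended on the 2 VEH libraries at 0 and missed the threshold (limma P = 0.0531, exact permutation P = 0.114). The 3 libraries with more than 20 CPM of Rpl3l, VEH 1, BAY 1 and BAY 2, were also those with the most RNA of muscle fibres, at 8508, 35833 and 39486 summed CPM of the 9 fibre markers, whereas the other 5 held between 26.9 and 1363. For each 1000 CPM of these markers, Rpl3l stood at 3.18, 1.70 and 1.96 CPM in the 3 bone libraries and between 1.03 and 1.39 CPM in TA muscle. The part of muscle RNA in the difference between the groups was not tested. Rpl3 itself was at 20.9, 10.3, 34.5 and 71.1 CPM in VEH bone and 13.6, 11.4, 69.1 and 16.9 CPM in BAY bone, above its level in muscle in all 8 libraries. Rpl3l exceeded Rpl3 in VEH 1, BAY 1 and BAY 2, but with the copies of Rpl3 added it was 0.217, 0.934 and 0.976 times the sum there and lower in the other 5 libraries.

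**Figure D4:**
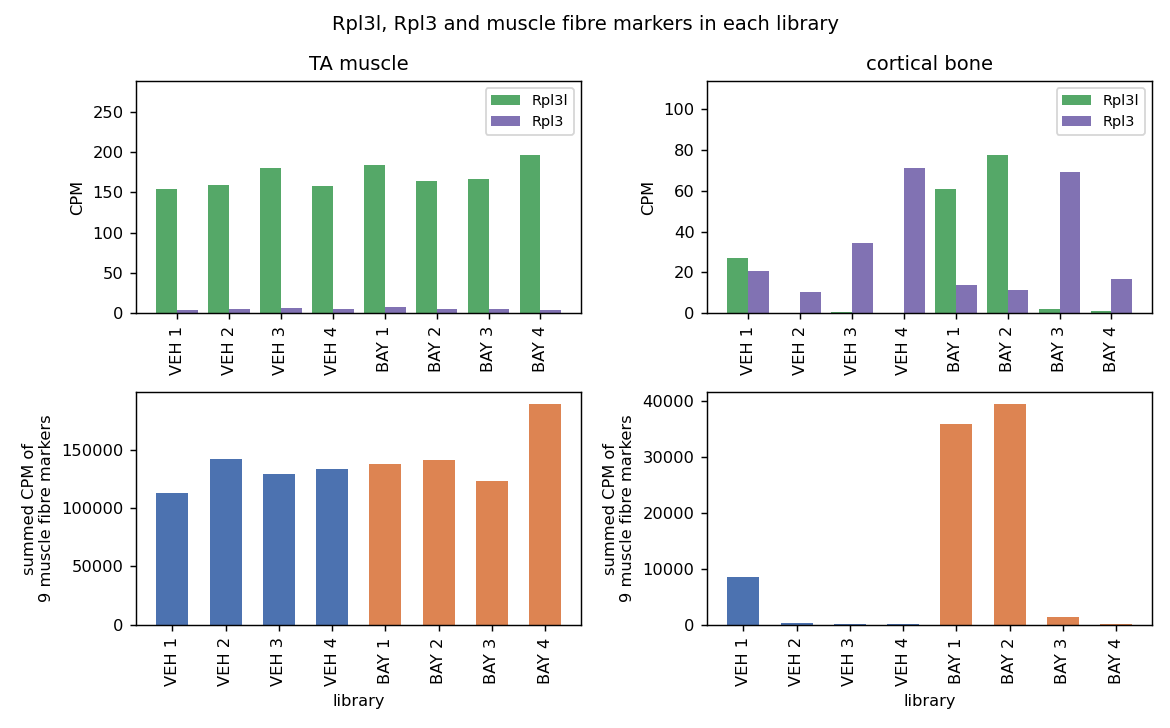
CPM of Rpl3l (green) and Rpl3 (purple) in each library (upper row) and the summed CPM of 9 muscle fibre markers in the same libraries (lower row), for TA muscle and cortical bone, with separate axes from 0. Rpl3l exceeds Rpl3 in all 8 muscle libraries and in VEH 1, BAY 1 and BAY 2 of bone, the bone libraries with the most fibre marker RNA. With the copies of Rpl3 added, Rpl3l was below the sum in all 8 bone libraries.

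Paralogue pairs whose paralogue had a mean of at least 1 CPM were compared in this way, 6 in muscle and 7 in bone with Rpl3l and Rpl3 among them, with P values adjusted over the pairs of a tissue, and none passed. A single shifted pair could not have passed with 4 mice per group, since its adjusted P could not go below 0.171 in muscle or 0.2 in bone. Rpl39l in bone was below that level and was not tested against Rpl39, with 0.575, 2.76, 0.354 and 1.46 CPM in VEH and 0.447, 0, 0.509 and 0 CPM in BAY, from no more than 4 reads in a library. The smallest adjusted P was 0.514 in muscle and 0.4 in bone (exact permutation). Rpl7l1, related to Rpl7, was at 9.91 ± 3.03 CPM in VEH muscle and 10.1 ± 1.09 in BAY muscle, while Rpl7 was at 70.4 ± 9.30 and 59.0 ± 7.13 (SD, n = 4). The log2 difference Rpl7l1 minus Rpl7 was −2.87 ± 0.25 in VEH and −2.55 ± 0.24 in BAY (exact permutation P = 0.114 before adjustment). Rpl22l1, a paralogue of Rpl22, was far below it in muscle, at 1.81 ± 0.438 CPM in VEH and 1.39 ± 0.652 in BAY against 29.8 ± 8.08 and 24.7 ± 2.76. In bone Rpl22l1 lay between 10.2 and 14.7 CPM in VEH and between 8.05 and 17.2 CPM in BAY.

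Rpl36al exceeded its paralogue Rpl36a in every muscle library, by 11.7 to 57.2 times, and the pair difference was 4.31 ± 0.51 in VEH and 4.77 ± 1.04 in BAY. Both share all their words with other genes, and Rpl36a held 7.35% of the sum with its copies. That sum lay between 15.5 and 25.5 CPM, and Rpl36al between 24.2 and 32.8 CPM, so the fold depends on how reads were divided. Rps27l, a paralogue of Rps27 that p53 can induce, was at 4.19, 2.93, 4.97 and 3.46 CPM in VEH muscle and 2.06, 4.08, 2.32 and 0.982 CPM in BAY muscle. Its log2 change was −0.86 ± 0.39 (limma P = 0.0456, exact permutation P = 0.0857), resting on 7 to 46 reads per library, with BAY 2 among the VEH values. Rps27l no longer passed when VEH 1, VEH 3, VEH 4, BAY 1, BAY 3 or BAY 4 was left out, and still passed without VEH 2 or BAY 2. Against Rps27, its difference was 4.00 ± 1.10 in VEH and 2.93 ± 0.58 in BAY (exact permutation P = 0.171, adjusted 0.514). Rps27 itself was at no more than 0.519 CPM in any muscle library while the retrogene Rps27rt, which shares all its words with Rps27, was at 14.8 ± 5.65 CPM in VEH and 9.76 ± 2.31 in BAY, so the division of reads between them is uncertain. In the same way Rpl10, a protein joined late to the large subunit, was at 1.95 ± 0.560 CPM in VEH muscle while its copy Rpl10-ps3 was at 66.1 ± 12.8 CPM. The sum of Rpl10 and its copies changed by 0.08 ± 0.15 (limma P = 0.596, exact permutation P = 0.6). Rps4x lay between 22.1 and 30.2 CPM in VEH muscle and between 19.1 and 25.3 CPM in BAY, and Rpl39 at 6.78 ± 1.42 and 6.04 ± 1.01. Their paralogues Rps4l and Rpl39l are not rows of the muscle table.

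In bone, the members were as spread between mice of a group as between groups. Mean log2 values were lower in BAY for 54 of 88 members and higher for 34, with a median of −0.16 over the members and 0.84 over all 38933 genes. The value over all genes depended on VEH 1, a library with 13269 genes at 0. It was −0.09 when VEH 1 was left out. With limma, 0 members were higher (0.545% of all genes) and 0 lower (0.095% of all genes) at an unadjusted P under 0.05, with or without the 2-fold limit, and 0 of 88 had groups without overlap (0.354% of genes higher and 0.0514% lower in BAY). The smallest P of a member was that of Rpl3l, and no gene of the bone table passed adjustment. Centring each library on the median of genes with at least 10 CPM moved the median of all genes from 0.84 to 0.26 and that of the members from −0.16 to −0.74. The sign of the members' median relative to 0 changed when VEH 4 (0.10) or BAY 4 (0.01) was left out.

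The members' level in bone followed the library more than the treatment. Their share of CPM was 0.218%, 0.133%, 0.351% and 0.397% in the VEH libraries and 0.185%, 0.187%, 0.406% and 0.157% in the BAY libraries. VEH 3, VEH 4 and BAY 3 were thus highest, and the median deviation over the 61 members with at least 10 CPM was 0.57, 0.85 and 0.82 in these 3 libraries and between −0.91 and −0.18 in the other 5. The same 3 libraries had the most RNA of bone cells, with the 13 osteoblast and osteocyte markers at 31656, 23220 and 23447 summed CPM against 1586 to 7521 in the other 5. The 8 neutrophil markers summed to 532, 2094 and 1192 CPM in these 3 and to 63.5 to 211 CPM elsewhere. The part of these cells in the members' levels was not tested.

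Rps3 and Rpl41, with 18.9% and 28.8% of their words elsewhere, were among the 5 highest members per kb and showed this order. Rps3, which lines the mRNA entry of the small subunit, was at 110, 40.3, 298 and 210 CPM in VEH and 83.8, 101, 302 and 49.8 CPM in BAY, a change of −0.28 ± 0.73 (limma P = 0.708, exact permutation P = 0.8). Rpl41, the smallest of the proteins, was at 47.2, 13.8, 60.6 and 67.5 CPM in VEH and 25.9, 18.2, 67.7 and 16.8 CPM in BAY (−0.58 ± 0.69, limma P = 0.420, exact permutation P = 0.486). Both were highest in VEH 3, VEH 4 and BAY 3 and lowest in VEH 2 and BAY 4. Rps24, with 80.6% of its words elsewhere, was at 78.6, 76.4, 99.8 and 108 CPM in VEH and 79.9, 77.6, 129 and 68.8 CPM in BAY. Rpl9 ran another way, at 1.30, 49.7, 11.2 and 23.3 CPM in VEH and 20.7, 13.7, 20.1 and 44.1 CPM in BAY, highest in VEH 2 and BAY 4, but it shares all its words with other genes. Summed with its copies, it was at 34.1, 85.6, 85.0 and 93.8 CPM in VEH and 58.0, 40.5, 101 and 116 CPM in BAY. BAY 4 was still the highest, but VEH 4 and BAY 3 exceeded VEH 2.

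VEH 2 and BAY 4 were the bone libraries with the fewest reads on genes (1086220 and 930306, against 1373674 to 6951916 in the rest) and the largest share on olfactory receptor genes, which bone is not known to use: 2.72% and 3.30%, against 0.0476% to 2.11%. Across the 8 libraries, Pearson's r between a member's log2 value and the log2 of that share (8 points that share depth) was over 0.5 for 29 of 88 members, led by Rpl9 at 0.99, and under −0.5 for 6. Among the 15 members over 50 CPM, r was under 0 for 13. The same count was not made over all genes, so it is not a trait of the members. The median deviation over all genes was also highest in VEH 2 (1.58) and BAY 4 (1.71). In VEH 2 and BAY 4, only 13 and 6 members were more than 3 times the median level per kb of olfactory receptor genes, whereas in VEH 1 it was 84 members. The part of such reads in the members' levels was not tested. Without both, 0 members were lower (0.0719% of all genes) or higher (0.686%) at an unadjusted P under 0.05, the median was −0.29, and 63 of 88 members had a lower mean in BAY. In muscle the same share was between 0.00185% and 0.00267%.

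**Figure D5:**
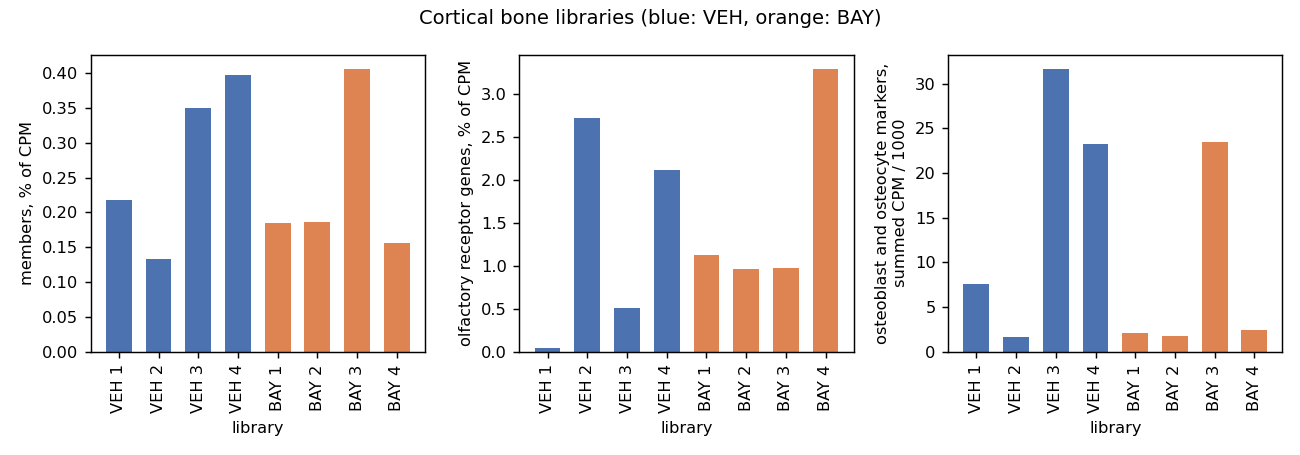
Share of CPM on the members (left), share on olfactory receptor genes (middle) and summed CPM of 13 osteoblast and osteocyte markers (right) in the 8 cortical bone libraries, VEH in blue and BAY in orange. The members' share is highest in VEH 3, VEH 4 and BAY 3, which also have the most marker RNA, and lowest in VEH 2 and BAY 4, which have the most olfactory receptor reads.

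In bone the mean pairwise correlation among the 61 members with at least 10 CPM was 0.42, below the 0.56 among the 13155 protein coding genes of that level, and the first component held 56.5% of the members' variance against 82.8%. The genes that are no member and followed the members' median most closely were Stag2, Grk2, Hnrnpa2b1, H2-K1 and Ddx5, each with r = 0.99 over the 8 libraries.

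Other genes of the translation apparatus in muscle are given list by list, beside the 6.71% of all genes that were higher and the 3.07% that were lower, and the lists were not tested against the members. Of 7 cytosolic ribosomal proteins that the name rule does not take, 0 were higher and 1 was lower at an unadjusted P under 0.05, with a median of −0.13: the stalk protein Rplp2 (−0.62 ± 0.27, limma adjusted P = 0.493). The stalk protein Rplp0 was at 154, 155, 185 and 134 CPM in VEH and 147, 155, 137 and 185 CPM in BAY. Of 78 mitochondrial ribosomal proteins, 1 was higher and 5 were lower, with a median of −0.09, among them Mrpl40 (−0.78 ± 0.24, limma adjusted P = 0.335). Of 30 initiation factors, 0 were higher and 6 were lower (Eif2s1, Eif3e, Eif4a2, Eif4e, Eif2s3x and Eif1ax, between −0.59 and −0.38), with a median of −0.11. All 6 were highest in VEH 3, as Eif3e was at 37.9 CPM there and at 17.1 to 21.0 CPM in the other VEH libraries. Without VEH 3, 3 initiation factors were lower (Eif2s1, Eif3e and Eif1ax), against 1.65% of all genes in that fit. The median of the initiation factors was then −0.01, beside 0.12 over all genes. The cap binding protein Eif4e was at 22.1, 24.9, 35.8 and 21.2 CPM in VEH and 17.8, 20.2, 21.3 and 12.1 CPM in BAY (−0.54 ± 0.20, limma adjusted P = 0.413).

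Of 8 elongation factors, 0 were higher and 1 was lower, Eef1b2, the exchange factor of eEF1A (−0.53 ± 0.18, limma adjusted P = 0.381), and the median was −0.20. Of 26 genes of ribosome biogenesis, Rrp12 was higher (0.38 ± 0.15, limma adjusted P = 0.439) and Rrn3, an initiation factor of RNA polymerase I, was lower (−0.47 ± 0.20, limma adjusted P = 0.474), with a median of −0.05. Of 19 genes that control growth and the translation of ribosomal proteins, 4 were higher and 0 lower, with a median of 0.03. These 4 act in mTORC1 signalling. Ddit4, an inhibitor of mTORC1, was at 2.21, 3.21, 2.48 and 1.91 CPM in VEH and 4.68, 2.93, 7.48 and 5.89 CPM in BAY (1.04 ± 0.31, limma adjusted P = 0.322), overlapping in BAY 2. Akt1s1 and Tsc1, which also restrain mTORC1, changed by 0.46 ± 0.16 and 0.30 ± 0.13, and Rptor, a subunit of mTORC1, by 0.35 ± 0.13 (limma adjusted P = 0.378, 0.480 and 0.418). None of these genes passed adjustment over all genes. Without VEH 3, the same 4 genes of growth control and Rrp12 were higher and Eef1b2 was lower at an unadjusted P under 0.05. Rplp2 and Rrn3 no longer passed. The log2 change of Rplp2 did not shrink, at −0.62 ± 0.27 with VEH 3 and −0.67 ± 0.31 without it. That of Rrn3 went from −0.47 to −0.33. The mitochondrial list turned from 1 higher and 5 lower to 4 higher and 1 lower (Mrpl40) without VEH 3. In bone no gene of these lists passed at an unadjusted P under 0.05. The medians there ran from −0.02 for the 7 other cytosolic proteins to 0.58 for the mitochondrial ribosomal proteins, of which 72 of 78 had a higher mean in BAY, beside the median of 0.84 over all genes. Without VEH 1 the median over all genes was −0.09, and the medians of the lists in bone were not taken without it.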

How the data were processed

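The authors trimmed bases, aligned reads with STAR 2.7.8a to mm39 and assigned them to Ensembl genes in Partek, which divides reads that fit several genes. The deposited values are log2 of CPM plus an offset, which the values put at 0.0004 in muscle and 0.0001 in bone. CPM and reads were recovered by undoing the log and from the steps between low values; depth was 6131921 to 9262388 reads on genes per muscle library and 930306 to 6951916 per bone library, and these depths cover counting error only. BAY and VEH were compared on the deposited log2 values with limma 3.58.1 (trended eBayes, R 4.3.3) over all genes of a tissue, without a low value filter, with Benjamini-Hochberg adjustment; the fit was tested on simulated data. Single members and paralogue differences were tested by exact two-sided permutation. Genes were named as follows: paralogue pairs, the 8 largest increases and decreases among members at P under 0.05 and at least 1 CPM, the 5 highest and lowest per kb of coding sequence (GENCODE M39) and the 5 genes most alike. Rps3a1, Rpl4, Rpl9, Rpl10-ps3, Rpl32, Rps23, Rpl17, Rpl27, and the shared words were added after values were seen. Members and lists were chosen with earlier results of these data known. Some members are counted but not reported by name here. P values set the difference between groups against the spread between single libraries. That spread holds differences in depth and in the RNA of other tissues as well as those between mice. Fold changes of genes at 0 depend on the offset.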

Additional observations from a re-analysis of the deposited data

Results flagged for a closer look

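Among 106 groups of 4 libraries tested for a library far from the other 3, 9 had one, and chance alone flags about 1 in 20 groups. In TA muscle, VEH 3 was far above the other VEH libraries for Rpl15 (37.7 CPM, the others 21.1 to 22.9) and Rpl3l (180 CPM, precisely 179.5, the others 154 to 159). In the BAY group of muscle, BAY 4 was far from the others for Rpl10 (0.459 CPM, the others 1.73 to 1.85) and Rps23rg1 (0.430 CPM, the others at 0).

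In cortical bone, VEH 1 held 27.0 CPM of Rpl3l while the other VEH libraries held no more than 0.354. VEH 2 was far below the others for Rpl26 (12.6 CPM against 103 to 115), and VEH 3 above them for Rpl24 (1.58 CPM against no more than 0.235). BAY 3 stood above the other BAY libraries for Rpl3 (69.1 CPM against 11.4 to 16.9) and for the share of CPM on the members (0.406% against 0.157% to 0.187%).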

How the results depend on the processing

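In muscle, the 10 members lower at an unadjusted P under 0.05 became 18 with median centring (5.22% of all genes lower, from 3.07%) and 6 without the trend (2.35%), and lay between 8 and 13 when 1 library was left out. No member was higher in these fits, and the median log2 fold change stayed between −0.24 and −0.08 when 1 library was left out. With a replicate block the count was 9 lower in muscle (3.10% of all genes lower, 5.36% higher) and 1 higher in bone (0.683% of all genes higher, 0.545% without the block). The labels do not say whether the replicate numbers pair the samples, and correlations between single libraries cannot settle it. The correlations of same-numbered deviations ran from −0.27 to 0.12 in muscle and from −0.12 to 0.41 in bone. Replicate 3 in muscle and replicates 3 and 4 in bone correlated best with their own number, and the others did not. In bone, 0 members became 1 (Rpl3l, higher) with log2(CPM + 1) (0.432% of all genes higher), with voom on recovered reads (3.68%), with the replicate block and when VEH 1 (0.539%) or VEH 3 (0.190%) was left out, so the leave-one-out range was 0 to 1. The members' median in bone ran from −0.54 to 0.10 when 1 library was left out, and turned positive without VEH 4 (0.0982) and without BAY 4 (0.0075). The Rpl3l minus Rpl3 shift in muscle lay between −0.08 and 0.29 in leave-one-out fits, with P from 0.257 to 0.886 by exact permutation. Adding copies to their parents and leaving out VEH 2 and BAY 4 in bone were chosen after seeing the data. Causes were not tested. Depth limits members under 3 CPM in bone, where 3 reads are worth 0.432 to 3.22 CPM.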

Other observations

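Rpl27-ps3, a processed pseudogene that carries every word of the Rpl27 coding sequence, was at 4.67, 1.19, 5.28 and 4.55 CPM in VEH-treated muscle and 9.32, 11.8, 8.53 and 13.2 CPM in BAY-treated muscle, without overlap (1.63 ± 0.39, limma P = 0.000998, adjusted P = 0.275, exact permutation P = 0.0286). In bone its values overlapped, between 0.221 and 8.85 CPM in VEH and between 5.62 and 9.93 CPM in BAY. It is the 1 copy whose addition to its parent gave a sum that was higher in BAY, and it was picked after its values were seen.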
